A study of Mus musculus with 127 samples.

Results

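The genes described here encode the building blocks of neuronal microtubules and a set of proteins that act on them: the beta-tubulins Tubb2a, Tubb2b and Tubb3, the alpha-tubulins Tuba1a and Tuba1b, the stathmins Stmn1, Stmn2, Stmn3 and Stmn4, and Mapt, which encodes tau. They were taken by symbol from the count table, and all 10 were found among its 53465 genes. Microtubules are polymers of alpha- and beta-tubulin dimers that give axons and dendrites their shape and carry transport along them. Stathmins bind free tubulin dimers and favour disassembly, whereas tau binds the lattice and stabilises it. Tubb3 is the beta-tubulin isotype used as a marker of neurons, and Stmn2, Stmn3 and Stmn4 are the stathmins of the nervous system, while Tuba1b and Stmn1 are also made by many dividing cells.

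Single striatal neurons of newborn C57BL/6 mice had been grown on microislands of cortical astrocytes, recorded by patch clamp, and their content drawn into the pipette for sequencing, a procedure called Patch-seq. Lentivirus carried human huntingtin exon 1 fused to GFP, with a polyglutamine tract of 97 (97Q, labelled mutant) or 25 residues (25Q, labelled wild type). RGFP109, an inhibitor of class I histone deacetylases, was given at 100 nM from culture day 6 and renewed every 3 days, and vehicle was DMSO. The groups were 26 neurons of 97Q with RGFP109, 26 of 97Q with vehicle, 23 of 25Q with RGFP109 and 29 of 25Q with vehicle, each spread over batches 1, 2 and 3. Batch 3 also held 14 untreated cortical astrocytes and 9 vehicle-treated neurons infected with a vector that lacked the huntingtin cassette (empty vector). Neurons were collected at culture day 15. The sources used here give neither the promoter of the cassette nor the animal behind each cell. The 97Q and 25Q neurons share the infection, the GFP tag and the endogenous mouse Htt gene.

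The libraries held 999700 to 9263305 counts each (median 4440040). Neurons carried GABAergic markers and lacked glutamatergic ones, whose summed level had a median of 0 in every group, but several defining markers of striatal projection neurons (Penk, Tac1, Drd1, Drd2 and Adora2a) had a median of 0 in 97Q vehicle and in 25Q vehicle neurons. Summed astrocyte markers had medians of 444 to 882 CPM (counts scaled to the library total) in the 4 transgene groups and 447 CPM in empty vector neurons, against 19270 CPM in astrocytes, and 3 neurons exceeded 4818 CPM.

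Several of the tubulin genes are close copies, and this bears on what their counts can show. On GRCm38, Tubb2a (ENSMUSG00000058672, chromosome 13, 34074274 to 34078007) and Tubb2b (ENSMUSG00000045136, chromosome 13, 34126748 to 34130466) are neighbours on the minus strand. Tuba1a (ENSMUSG00000072235, chromosome 15, 98949837 to 98953703) and Tuba1b (ENSMUSG00000023004, chromosome 15, 98931425 to 98934565) are likewise neighbours on the minus strand. The last 60 coding bases of Tubb2a and Tubb2b are shown because they encode the acidic carboxy-terminal tail, the stretch in which tubulin isotypes differ most. Capitals mark the bases that differ between the copies, read 5′ to 3′ to the stop codon from GENCODE transcripts of release M21.
Tubb2a: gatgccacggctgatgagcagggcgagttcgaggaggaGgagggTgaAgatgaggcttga
Tubb2b: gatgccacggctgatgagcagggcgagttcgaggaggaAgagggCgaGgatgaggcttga

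Even in this stretch Tubb2a and Tubb2b differed at only 3 bases. Read in frame to the stop codon, these differences left the encoded amino acids unchanged, so the encoded tails were the same. Over the whole coding sequence, Tubb2a and Tubb2b differed at 47 of 1338 bases (96.5% identity), and Tuba1a and Tuba1b at 23 of 1356 (98.3%). Of the distinct 50-base windows in its transcripts, Tuba1a shared 75.5% with transcripts of other genes, Tuba1b 75.1%, Tubb2a 49.6%, Tubb2b 36.9% and Stmn1 18.9%. For Stmn2 the share was 0.893%, and for Tubb3, Stmn3, Stmn4 and Mapt it was 0. How reads with several matches were counted, and whether strand was used, is not given in the sources used here, so the split of counts within the Tuba1 and Tubb2 pairs is uncertain. Exon bases of Tuba1a and Tuba1b also overlap the predicted gene Gm49450, those of Tuba1b an antisense gene, Gm41396, and those of Stmn1 a short RNA gene, Gm23634.

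The remaining genes lie apart from each other. Tubb3 (ENSMUSG00000062380) is on chromosome 8, 123411424 to 123422015, Stmn1 (ENSMUSG00000028832) on chromosome 4, 134468320 to 134473843, and Stmn2 (ENSMUSG00000027500) on chromosome 3, 8509360 to 8561606, all on the plus strand. Stmn3 (ENSMUSG00000027581) is on chromosome 2, 181306459 to 181314500, minus strand. Stmn4 (ENSMUSG00000022044) is on chromosome 14, 66344296 to 66361680, and Mapt (ENSMUSG00000018411) on chromosome 11, 104231390 to 104332090, both on the plus strand.

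Cells are not replicates, so raw counts were added up by group and batch, which gave 12 sums (4 groups in 3 batches) with the batch as the replicate. Per length, on the scale of CPM per 1000 exon bases, Stmn3 was highest with a mean over the 12 sums of 824 ± 396, and Tuba1a followed with 821 ± 222 (SD, n = 12). Tubb2a had 555 ± 243, Stmn2 355 ± 156 and Tubb3 222 ± 127. These 5 genes had higher means than the others, of which Stmn4 had 81.1 ± 42.8, Tuba1b 44.7 ± 10.8, Stmn1 32.8 ± 7.31, Mapt 32.7 ± 12.1 and Tubb2b 14.6 ± 8.42. Neighbours in this order differed by more than the larger of their SDs between Tuba1a and Tubb2a, Tubb3 and Stmn4, Tuba1b and Stmn1, and Mapt and Tubb2b, and by less than it between the other neighbours. Without batch 2, described next, Stmn3 had 1020 ± 204, Tuba1a 878 ± 189, Tubb2a 703 ± 81.4 and Tubb3 285 ± 57.9 (SD, n = 8), and the order of the 10 genes changed only between Mapt (34.8 ± 9.24) and Stmn1 (31.02 ± 6.88). When the counts were divided instead by the number of 50-base windows found in that gene alone, a choice made after seeing the data, Tuba1a came first with 3449 per 1000 windows, before Tubb2a with 1135, Stmn3 with 861 and Stmn2 with 358. Tuba1b then had 179 and moved above Stmn4, which had 75.7, and Tubb2b remained last with 23.3. The order of Tuba1a and Stmn3 therefore depends on how shared sequence is treated. Exon bases were those of all annotated transcripts of a gene merged. For Stmn2, Mapt, Stmn4 and Stmn1 these were 5602, 7531, 1916 and 1922, against 3413, 5253, 1361 and 1060 in the longest transcript. The levels of these genes therefore also depend on the length used, and the order by transcript length was not computed.

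**Figure D1:**
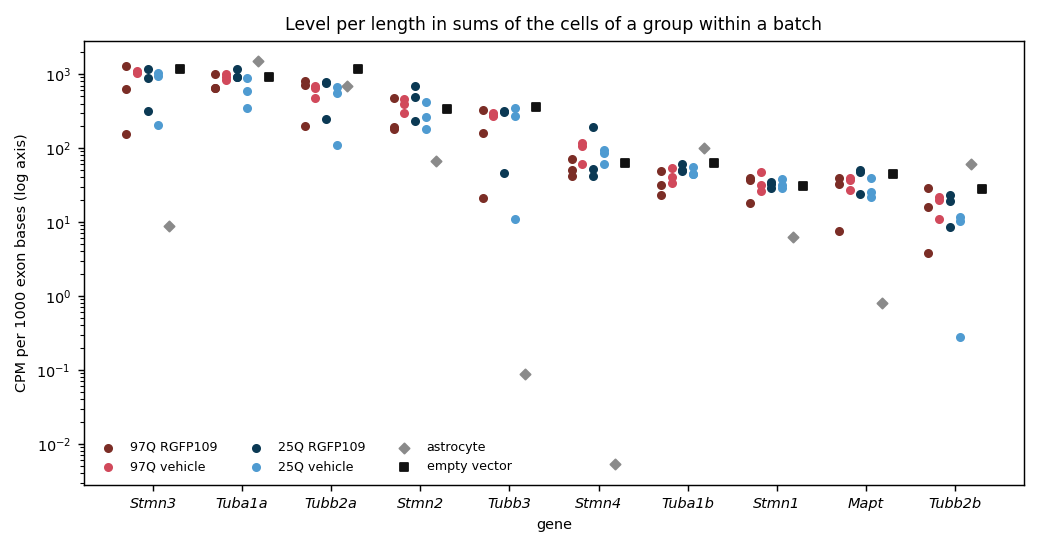
Level per length of each gene, as CPM per 1000 exon bases on a log axis, in sums by group and batch. Each circle is 1 of 3 batches of a transgene group, the diamond is the astrocyte sum and the square the empty vector sum of batch 3. Stmn3, Tuba1a, Tubb2a, Stmn2 and Tubb3 lie above the other genes in most neuron sums, and the astrocyte sum is far below the neuron sums for Tubb3, Stmn4, Stmn3 and Mapt.

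Batch 2 stood apart for some of these genes and not for others. It held 15 transgene neurons, and batches 1 and 3 held 34 and 55. Genes detected per neuron had medians of 12436, 8877 and 11806 in batches 1, 2 and 3. The median of Tubb3 over the neurons of the 4 transgene groups was 300 CPM in batch 1, 31.1 CPM in batch 2 and 460 CPM in batch 3. Tubb3 was below 100 CPM in 12 of 15 neurons of batch 2, against 4 of 34 in batch 1 and 4 of 55 in batch 3. Stmn3 had medians of 988, 78.9 and 1135 CPM in batches 1, 2 and 3, and Tubb2a 1022, 182 and 862 CPM. Stmn2 did not share this pattern, with medians of 1237, 1927 and 2200 CPM, nor did Tuba1a, with 977, 1355 and 1430 CPM.

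The contrast was visible inside single neurons of batch 2. Cell 10 of 25Q RGFP109 had 7798 CPM of Stmn2, the highest of the 104 transgene neurons, with 16.8 CPM of Tubb3 and 36.2 CPM of Stmn3. Cell 9 of 97Q vehicle had 3117 CPM of Stmn2 and no count of Stmn3 in 2470015 counts, which allows up to 1.22 CPM. A 25Q vehicle neuron of the same batch, cell 11, had 1164 CPM of Stmn2 and no count of Tubb3 (up to 1.13 CPM). Stmn2 and Stmn3 encode related stathmins of neurons, and in these cells their transcripts went apart.

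Base composition was set beside this pattern. The GC content of the longest transcript was 57.9% for Tubb3, 57.3% for Stmn3 and 55.2% for Tubb2a, in the top quintile of tested genes, and 41.3% for Stmn2, in the bottom quintile. On the scale of log2(CPM + 1), the difference of the batch 2 sums from the other sums, each averaged as CPM before the log, was -1.59 for Tubb3, -1.24 for Stmn3, -1.45 for Tubb2a and 0.27 for Stmn2. Over the 15076 tested genes with a transcript sequence, the median of this difference was 0.0076 in the quintile of lowest GC content and -0.38 in the highest. The interquartile ranges of these quintiles overlapped, at -0.60 to 0.56 and -0.92 to 0.12. Spearman's rho between GC content and this difference was -0.16 over these genes. Tuba1b, with 55.3% GC, had -0.20, and Tubb2b, with 51.2%, had -0.99. The part of base composition in the differences of batch 2 was not tested.

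**Figure D2:**
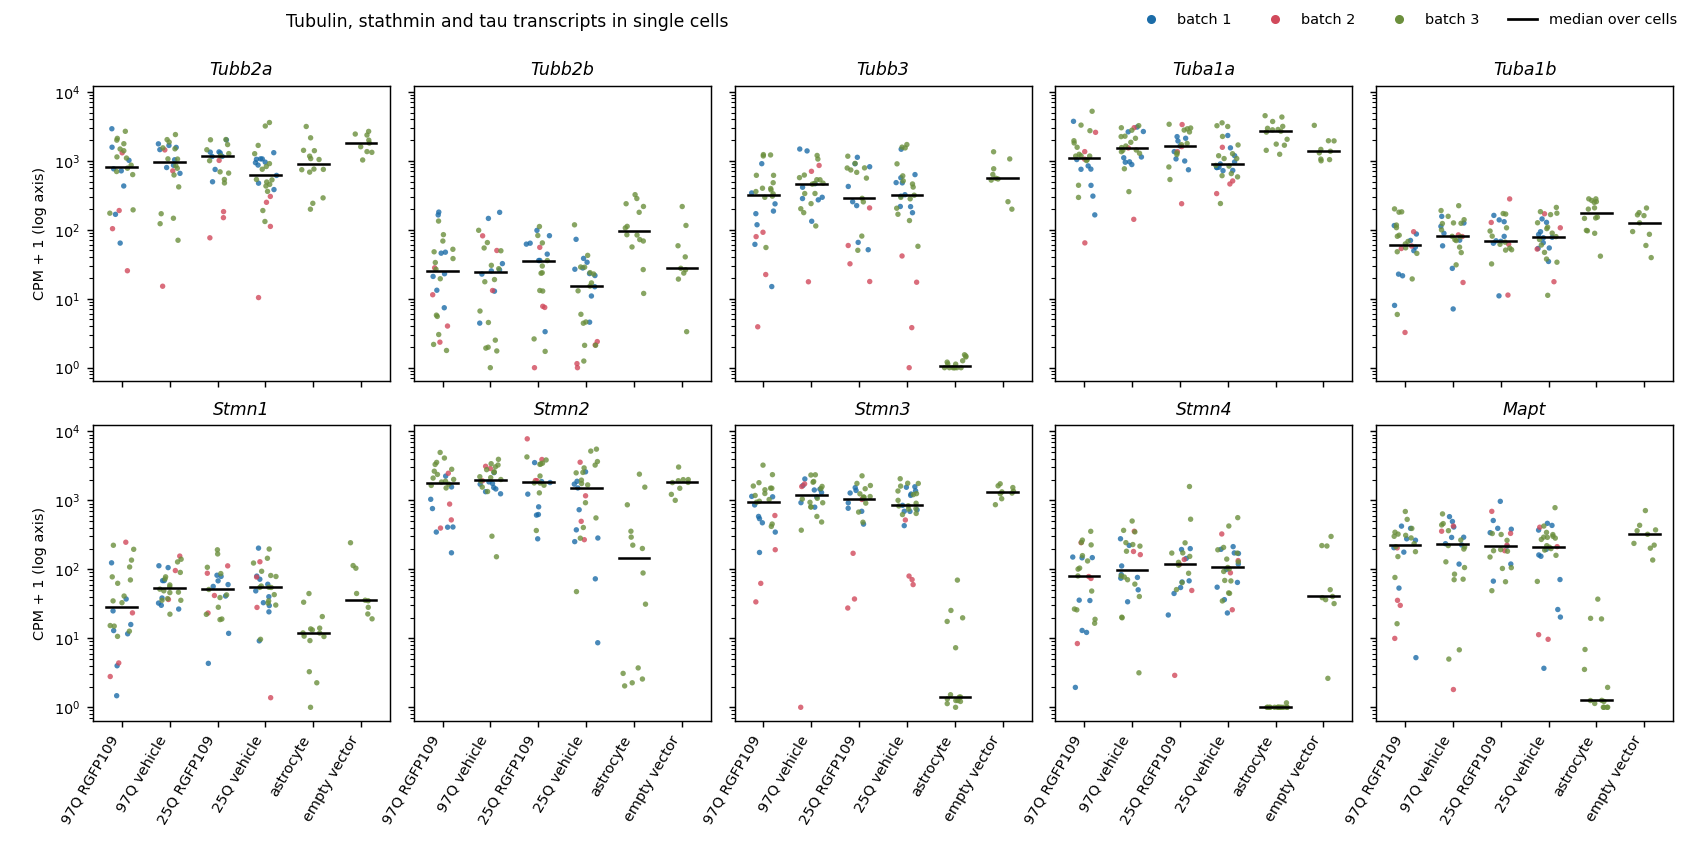
Level of each gene in each of the 127 cells (neurons and astrocytes), as CPM + 1 on a log axis, by group. Each point is 1 cell coloured by batch, and the black line is the median over the cells of a group. Red points (batch 2) sit low for Tubb3, Stmn3 and Tubb2a and among the others for Stmn2 and Stmn4, and the astrocytes are near 0 for Tubb3 and Stmn4.

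Within a group, single neurons spread more widely than the medians of the groups did. Tuba1a had medians over cells of 1110 CPM in 97Q RGFP109, 1542 CPM in 97Q vehicle, 1638 CPM in 25Q RGFP109, 898 CPM in 25Q vehicle and 1372 CPM in empty vector neurons, with single neurons between 63.5 and 5217 CPM. Stmn2 medians lay between 1512 CPM (25Q vehicle) and 1961 CPM (97Q vehicle), and its neurons between 7.63 and 7798 CPM. Stmn3 medians lay between 846 CPM (25Q vehicle) and 1326 CPM (empty vector), and those of Tubb2a between 612 CPM (25Q vehicle) and 1804 CPM (empty vector). Mapt medians were close together in the transgene groups, at 223, 230, 216 and 212 CPM in 97Q RGFP109, 97Q vehicle, 25Q RGFP109 and 25Q vehicle, and 321 CPM in empty vector neurons. Stmn1, the stathmin shared with dividing cells, had medians of 27.9 CPM in 97Q RGFP109 and 52.8 CPM in 97Q vehicle, 50.1 CPM in 25Q RGFP109 and 53.7 CPM in 25Q vehicle. Stmn4 had 78.5, 97.0, 117 and 105 CPM in the same order, and its single neurons ran up to 1586 CPM.

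The first comparison asks how the expanded tract bears on these transcripts in neurons given vehicle. No gene in the genome-wide test, and so none of the 10, passed a Benjamini-Hochberg adjusted p of 0.05 by edgeR's quasi-likelihood test (0% of 15091 genes). At an unadjusted p under 0.05 the same test listed 597 genes. DESeq2 called 213 genes and limma 0 (1045 at an unadjusted p under 0.05), and in neither was any of the 10 genes called. The log2 fold change was above 0 for 9 of the 10 genes, against 52.4% of all genes, and its median was 0.53, against 0.057 over all genes. Each neuron was also left out in turn, a choice made after seeing the data. This changed the sign of the mean of the 3 batch differences in log2(CPM + 1) for Stmn1 and Tuba1b. Without cell 9 of 97Q vehicle it was -0.097 for Stmn1, against 0.062 with it. Without cell 12 of 25Q vehicle it was 0.10 for Tuba1b, against -0.18 with it.

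Tubb3 showed how far batch 2 carried these values. It had 518, 560 and 501 CPM in the 97Q vehicle sums, in the order of the batches, against 505, 20.7 and 646 CPM in the 25Q vehicle sums. The 97Q sums were close together, the 25Q sum of batch 2 was far below them, and the 25Q sum of batch 3 was above them. The 25Q sum of batch 2 held 4 neurons with 0, 16.3, 2.81 and 40.6 CPM, whereas the 97Q sum of that batch held 3 neurons with 16.6, 702 and 854 CPM. The 97Q neurons at 702 and 854 CPM had 12724 and 10296 genes with a count, and the 97Q neuron at 16.6 CPM had 6433. The 4 25Q neurons had 8177 to 11072. The 25Q neuron at 40.6 CPM had 11072 genes with a count, more than the 97Q neuron at 854 CPM. The part of library complexity in these values was not tested. The log2 fold change was 1.64 (SE 0.887), with 0.036, 4.69 and -0.36 by batch, and -0.14 when batch 2 was left out.

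Stmn3 had 1209, 1187 and 1261 CPM in 97Q vehicle sums, against 1073, 236 and 1163 CPM in 25Q vehicle sums. It was the 1 gene of the 10 whose 97Q sums all lay above the 25Q sums, where 3.78% of all genes did so. Its log2 fold change was 0.96 (SE 0.451), and 0.15 without batch 2. Tubb2a had 1127, 765 and 1028 CPM in 97Q vehicle sums, against 895, 175 and 1088 CPM in 25Q vehicle sums. Its groups overlapped, with a log2 fold change of 0.77 (SE 0.343), and 0.14 without batch 2. By edgeR's quasi-likelihood test its unadjusted p was 0.0491 and its Benjamini-Hochberg adjusted p 0.969. Tubb2b had 45.7, 50.1 and 25.5 CPM in 97Q vehicle sums, against 26.9, 0.648 and 23.6 CPM in 25Q vehicle sums, of which the 0.648 CPM rests on 12 counts. It was higher in 97Q in each batch, with a log2 fold change of 2.02 (SE 1.08), and 0.45 without batch 2.

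Tuba1a, the main alpha-tubulin of developing neurons, had the smallest p of the 10 genes in edgeR's fit, though not with DESeq2 or limma. It had 1488, 1652 and 1792 CPM in 97Q vehicle sums, against 1068, 630 and 1598 CPM in 25Q vehicle sums. Its values were higher in 97Q in each batch, by 0.48, 1.39 and 0.17 on the scale of log2(CPM + 1), although the sums of the groups overlapped across batches. Being higher in 97Q in each batch was true of 4 of the 10 genes (Tubb2b, Tuba1a, Stmn3 and Stmn4), against 15.8% of all genes. The log2 fold change of Tuba1a was 0.61 (SE 0.232), with an unadjusted p of 0.0266 and a Benjamini-Hochberg adjusted p of 0.969 by edgeR's quasi-likelihood test, and 0.33 without batch 2. Its near-copy Tuba1b was the 1 gene of the 10 below 0, at -0.22 (SE 0.328), lower in 97Q in each batch, where 13.2% of all genes were. When the counts of near-identical genes were pooled, the Tuba1 genes together had 0.56 and the Tubb2 genes 0.81.

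In edgeR's fit, the remaining genes differed by less than 2 times their SE in this comparison, as did Tubb3, Tubb2b and Tuba1b above. Stmn2 had a log2 fold change of 0.45 (SE 0.278), Mapt 0.24 (SE 0.481), Stmn4 0.15 (SE 0.451) and Stmn1 0.010 (SE 0.403). On the mean of log2(CPM + 1) over cells, which weights neurons equally, limma gave Stmn2 a difference of 1.31 with an unadjusted p of 0.0061 and a Benjamini-Hochberg adjusted p of 0.680, and Stmn1 0.63. Mapt had 294, 278 and 204 CPM in 97Q vehicle sums, against 193, 162 and 299 CPM in 25Q vehicle sums, so its direction differed between batches 1 and 2 and batch 3. No cell type marker passed the threshold in the same comparison by edgeR's quasi-likelihood test. The GABAergic markers Gad1 and Gad2 had log2 fold changes of -1.83 (SE 0.245) and -1.42 (SE 0.239), with Benjamini-Hochberg adjusted p-values of 0.445 and 0.969 by edgeR. All 11 tested striatal projection neuron markers were below 0, with a median of -1.53, and 1 of them had an unadjusted p under 0.05 by edgeR's quasi-likelihood test. Of the astrocyte markers, 7 of 14 were above 0, with a median of 0.13, and all 5 tested proliferation markers were above 0, with a median of 3.54. Of the 9 proliferation markers, 7 in 97Q vehicle and 8 in each other transgene group had a median of 0 over cells. Most proliferation values in all comparisons are therefore near the floor. The part of all these markers in the values of the tubulin, stathmin and tau genes was not tested. Fewer neurons of a type in a sum and less RNA of a gene in each neuron cannot be told apart in the sums.

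**Figure D3:**
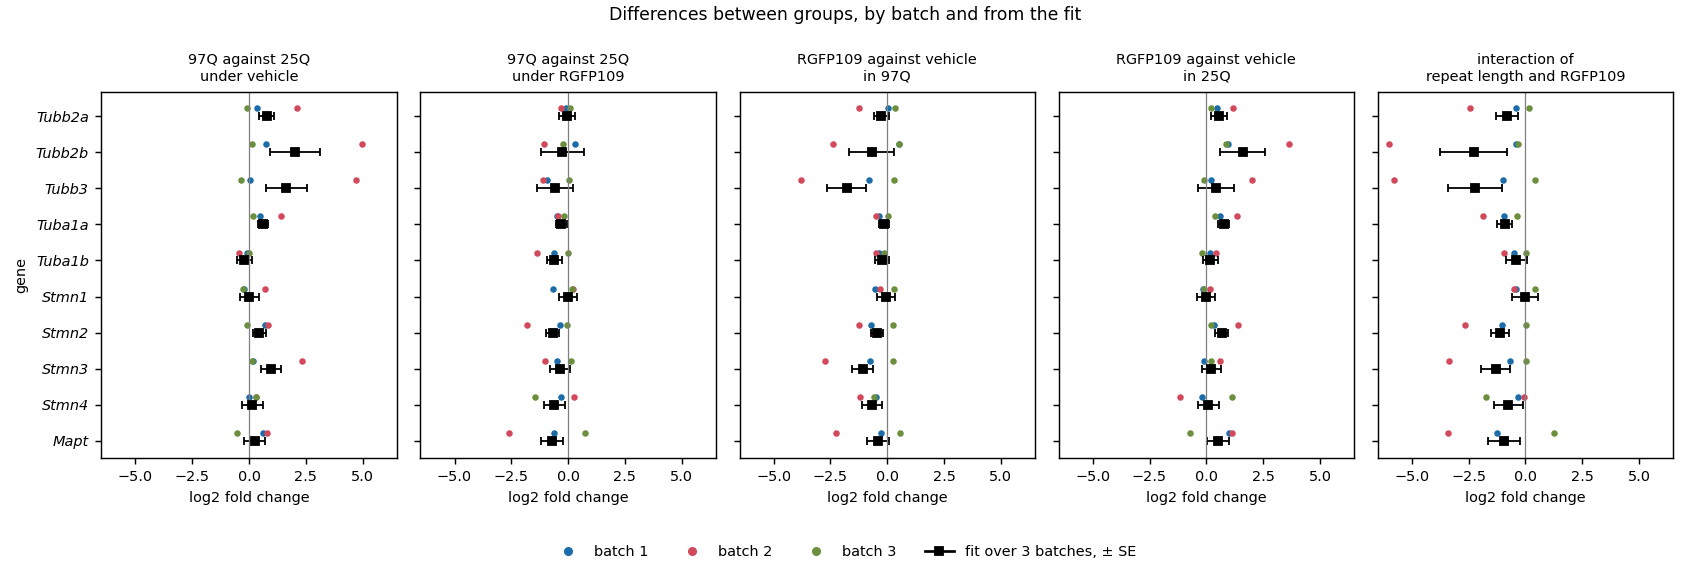
Log2 fold change of each gene in the 4 comparisons and in the interaction, from the fit over 3 batches (black squares with SE) and within each batch (coloured points, differences of log2(CPM + 1)). The batch 2 points lie far from 0 for Tubb2b and Tubb3 in 97Q against 25Q under vehicle (4.95 and 4.69) and in the interaction (-6.01 and -5.79), while the batch 1 and batch 3 points are mostly within 1 of 0.

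Under RGFP109, the same comparison of tract lengths gave values below 0 for all 10 genes, against 49.9% of all genes, with a median log2 fold change of -0.47, against 0.0029 over all genes. None passed the threshold in edgeR's quasi-likelihood test (0% of 15091 genes, 564 at an unadjusted p under 0.05), and DESeq2 called 277 genes, none of the 10. Limma called 0, with 922 at an unadjusted p under 0.05. Stmn2 had 1016, 1082 and 2644 CPM in 97Q RGFP109 sums, against 1295, 3824 and 2715 CPM in 25Q RGFP109 sums. It was lower in 97Q in each batch, with log2 differences of -0.35, -1.82 and -0.038, and the sums overlapped. Stmn2 and Tuba1a were the 2 genes lower in each batch, against 13.4% of all genes. The log2 fold change of Stmn2 was -0.68 (SE 0.280), with an unadjusted p of 0.0377 and a Benjamini-Hochberg adjusted p of 0.9995 by edgeR's quasi-likelihood test. In the 25Q RGFP109 sum of batch 2, cell 10 alone gave 51.3% of the Stmn2 counts. Without batch 2 this fold change was -0.29. Stmn4 had 81.3, 96.6 and 135 CPM in 97Q RGFP109 sums, against 101, 79.9 and 369 CPM in 25Q RGFP109 sums. The highest of these, the 25Q sum of batch 3, took 57.1% of its Stmn4 counts from 1 neuron with 1586 CPM. Mapt had 246, 57.5 and 299 CPM in 97Q RGFP109 sums, against 384, 356 and 179 CPM in 25Q RGFP109 sums, with the order reversed in batch 3. Each neuron was also left out in turn, a choice made after seeing the data. Without cell 12 of 25Q RGFP109, the mean of the 3 batch differences in log2(CPM + 1) was 0.40 for Tubb2a, 0.29 for Tubb2b and 0.27 for Stmn3, against -0.11, -0.33 and -0.46 with it. Without cell 9 of 97Q RGFP109 it was 0.098 for Stmn1, against -0.099 with it. The count of all 10 genes below 0 therefore rests on single neurons. In the fit, Mapt had -0.72 (SE 0.494), Tuba1b -0.62 (SE 0.330), Stmn4 -0.60 (SE 0.463) and Tubb3 -0.58 (SE 0.776). The sums of the groups overlapped for each of the 10 genes, where 3.58% of all genes had 97Q sums all below the 25Q sums. The 3 GABAergic markers were below 0 in this comparison (median -1.30), as were the 5 tested oligodendrocyte markers (median -1.15), and their part was not tested.

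RGFP109 against vehicle within 97Q neurons again gave values below 0 for all 10 genes, against 52% of all genes, with a median of -0.43, against -0.041 over all genes. EdgeR's quasi-likelihood test called 0% of 15091 genes (375 at an unadjusted p under 0.05), DESeq2 called 109, none of the 10, and limma called 0 (798 at an unadjusted p under 0.05). Stmn3 had 720, 177 and 1482 CPM in 97Q RGFP109 sums, against 1209, 1187 and 1261 CPM in 97Q vehicle sums. It was lower with RGFP109 in batches 1 and 2 and higher in batch 3. The log2 fold change of Stmn3 was -1.08 (SE 0.454), with an unadjusted p of 0.0401 and a Benjamini-Hochberg adjusted p of 0.999 by edgeR's quasi-likelihood test, and -0.27 without batch 2. Tubb3 had 300, 39.4 and 613 CPM in 97Q RGFP109 sums, against 518, 560 and 501 CPM in 97Q vehicle sums. It followed the same pattern over the batches, with a log2 fold change of -1.79 (SE 0.859), and -0.25 without batch 2. Stmn4 and Tuba1b were the 2 genes lower with RGFP109 in each batch, at -0.66 (SE 0.453) and -0.23 (SE 0.327), where 14.1% of all genes were lower in each batch. Leaving out 1 neuron turned the mean of the 3 batch differences to just above 0 for Tubb2a, Tuba1a and Stmn1. Of the markers, 4 of 5 for proliferation (median -4.24, most near the floor) and 5 of 5 for oligodendrocytes were below 0. Of those for astrocytes, 9 of 14 were above 0 (median 0.50). The part of all these markers was not tested.

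RGFP109 against vehicle within 25Q neurons gave values above 0 for 9 of the 10 genes, against 50.1% of all genes, with a median of 0.48, against 0.0021 over all genes. EdgeR's quasi-likelihood test called 0% of 15091 genes (381 at an unadjusted p under 0.05), DESeq2 called 152, none of the 10, and limma called 0 (721 at an unadjusted p under 0.05). Tuba1a had 1623, 1628 and 2097 CPM in 25Q RGFP109 sums, against 1068, 630 and 1598 CPM in 25Q vehicle sums. All 3 sums with RGFP109 lay above the 3 with vehicle, as they did for 2.89% of all genes, and Tuba1a was the 1 gene of the 10 with no overlap. Its log2 fold change was 0.76 (SE 0.232), with an unadjusted p of 0.00881, place 43 among all genes, and a Benjamini-Hochberg adjusted p of 1 by edgeR's quasi-likelihood test. It was 0.58 without batch 2. Stmn2 had 1295, 3824 and 2715 CPM with RGFP109, against 1025, 1461 and 2341 CPM with vehicle. It was higher with RGFP109 in each batch, with overlap between the groups and a log2 fold change of 0.68 (SE 0.279). By edgeR's quasi-likelihood test its unadjusted p was 0.0368 and its Benjamini-Hochberg adjusted p 1. Tubb2a and Tubb2b were also higher in each batch, at 0.56 (SE 0.335) and 1.59 (SE 0.992), where 12.3% of all genes were. With limma over cells Stmn2 had 1.28. Leaving out 1 neuron changed the sign of the mean of the 3 batch differences for Tuba1b, Stmn1, Stmn3 and Stmn4. Of the striatal projection neuron markers, 9 of 11 were below 0 (median -1.39). Above 0 were 10 of 14 astrocyte markers (median 0.74) and 5 of 5 proliferation markers (median 1.73, most near the floor). None of these markers passed the threshold by edgeR's quasi-likelihood test, and their part was not tested.

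The difference between the RGFP109 effects in 97Q and 25Q neurons, the interaction, was below 0 for all 10 genes, against 51.6% of all genes, with a median of -0.93, against -0.044 over all genes. Stmn2 had an interaction of -1.13 (SE 0.396) and Tuba1a of -0.91 (SE 0.327). By edgeR's quasi-likelihood test the unadjusted p was 0.0186 for Stmn2 and 0.0199 for Tuba1a, and the Benjamini-Hochberg adjusted p was 0.998 for both. The interaction of Tuba1a was below 0 in each batch, at -0.95, -1.85 and -0.36, and -0.77 without batch 2. Tubb2b, Tuba1a and Stmn4 were below 0 in each batch, against 13.8% of all genes. The interaction of Stmn2 was -1.03, -2.65 and 0.046 by batch, and -0.62 without batch 2. With limma over cells it was -2.13. EdgeR's quasi-likelihood test called 0% of 15091 genes for the interaction (393 at an unadjusted p under 0.05), DESeq2 70, none of the 10, and limma 0 (734 at an unadjusted p under 0.05). In the interaction 9 of 11 striatal projection neuron markers were above 0 (median 2.09). Below 0 were 5 of 5 proliferation markers (median -4.56, most near the floor) and 4 of 5 oligodendrocyte markers (median -2.50). The part of these markers was not tested. The 4 comparisons and the interaction use the same 12 sums, so the opposite signs in 97Q and 25Q neurons are not separate observations. The 10 genes also vary together among neurons, as described next, so counts of genes on 1 side of 0 are not counts of independent values. Over all alternatives of processing, the adjusted p of the 10 genes by edgeR, DESeq2 or limma ran from 0.230 to 1.

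Across all neurons, empty vector included, Spearman's rho of log2(CPM + 1) between the 45 pairs of genes ran from -0.13 to 0.68, with a median of 0.34. The neurons share batch and library depth, so these are descriptions. The tightest pairs joined Tubb3 with Tuba1a (0.68), with Tubb2a (0.68) and with Stmn3 (0.67), which encode subunits of the neuronal microtubule and a stathmin. With the mean of each group and batch removed they were 0.67, 0.61 and 0.59, and the median over the pairs was 0.30. Stmn4 stood outside, with rho between -0.13 and 0.23 against the others, and Stmn1 had at most 0.38. Stmn2 was closer to Tuba1a (0.47) than to Tubb3 (0.30).

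**Figure D4:**
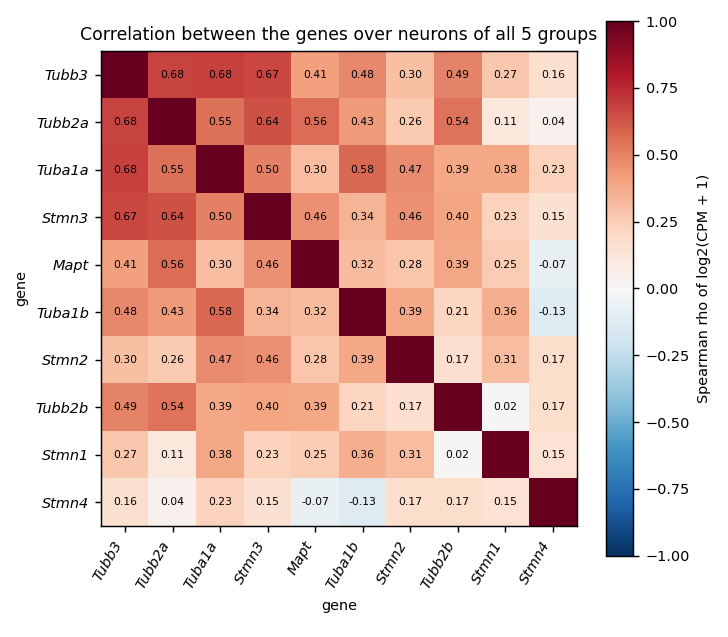
Spearman's rho of log2(CPM + 1) between each pair of the 10 genes over all neurons, with the colour from -1 (blue) to 1 (red). Tubb3, Tubb2a, Tuba1a and Stmn3 form the block of highest values, 0.50 to 0.68, and Stmn4 has values of at most 0.23.

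Outside the 10 genes, those whose level was most like the mean of the 10 over all neurons, by Spearman's rho, were Tubb4a (0.75) and Tubb5 (0.73), further beta-tubulins, and Acot7 (0.71), Csdc2 (0.68) and Map1b (0.66). Acot7 is an acyl-CoA thioesterase of brain, Csdc2 an RNA-binding protein, and Map1b a microtubule-associated protein of growing axons. The median over 15628 genes was 0.065.

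The astrocytes address which of these transcripts belong to neurons in these cultures. With 1 batch and 1 sum per group there is no test, and intervals cover counting error only. Of the 10 genes, 6 were at least 2-fold lower in the astrocyte sum than in the empty vector sum, where 30.3% of all genes were, and 1 was at least 2-fold higher, where 23.2% were. Tubb3 had 16 counts in 14 astrocytes, 0.163 CPM, against 666 CPM in empty vector neurons, and no astrocyte exceeded 0.540 CPM. Stmn4 had 1 count in all astrocytes, against 121 CPM in empty vector neurons, a ratio of 8.43e-05 with an exact 95% interval of 2.13e-06 to 0.00047. Stmn3 had 10.1 CPM against 1321, Mapt 6.05 against 339, and Stmn1 12.2 against 59.7 CPM. For Tubb3, Stmn3, Stmn4 and Mapt, every astrocyte was below the lowest empty vector neuron, which for Stmn3 meant at most 68.8 CPM in astrocytes and at least 864 CPM in empty vector neurons.

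The tubulins other than Tubb3 were abundant in astrocytes. Tuba1a had 2715 CPM in the astrocyte sum, against 1654 CPM in the empty vector sum, Tuba1b 185 against 116 CPM, and Tubb2a 1114 against 1878 CPM. Tubb2b, with 139 CPM against 64.5 CPM, was the 1 gene at least 2-fold higher in astrocytes, at a ratio of 2.16 (exact 95% interval 2.07 to 2.25). It was within the range of the empty vector neurons (2.33 to 216 CPM) in 10 of 14 astrocytes and above it in 4. The part of astrocyte RNA in the neuron levels of these genes was not tested.

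Stmn2, a stathmin used as a neuronal marker, was uneven among astrocytes. Its sum was 369 CPM, against 1865 CPM in empty vector neurons. Single astrocytes had 1.04 to 2397 CPM, with a median of 144 CPM, against 1000 to 3039 CPM with a median of 1821 CPM in empty vector neurons. At least 100 CPM was found in 7 of 14 astrocytes (50%), all of 1 batch. The astrocyte with the most, cell 12, had 2397 CPM of Stmn2 with 0.254 CPM of Stmn3, 0.254 CPM of Mapt and no count of Tubb3 or Stmn4. This cell also had the fewest counts (3944655), the fewest genes (8983) and the lowest summed astrocyte markers (8394 CPM) of the 14 astrocytes. Cell 5 followed with 1553 CPM, with 68.8 CPM of Stmn3 and no count of Tubb3. A level below 10 CPM was found in 5 astrocytes. Other markers of neurons were mixed in the astrocytes, where the 10 markers summed to 252 to 885 CPM, against 5233 to 9968 CPM in empty vector neurons, and Rbfox3, Nefl and Nefm had a median of 0. Their part in the Stmn2 level was not tested. Snap25 reached at most 1.84 CPM, Rbfox3 0.254 CPM and Gad1 2.45 CPM in any astrocyte, and Eno2 had a median of 0.576 CPM with a highest value of 154 CPM. Uchl1, by contrast, had 132 to 688 CPM in all 14 astrocytes (median 342 CPM), against 456 to 1126 CPM in empty vector neurons, and Map2 had a median of 126 CPM, against 399 CPM in empty vector neurons. Over the 14 astrocytes, Spearman's rho of Stmn2 was 0.10 with Stmn3 and -0.31 with the summed astrocyte markers.

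Transgene neurons of batch 3 were set beside empty vector neurons of that batch, again without a test. Tubb2b was at least 2-fold lower in both, with 25.5 CPM in 97Q vehicle and 23.6 CPM in 25Q vehicle, against 64.5 CPM in the empty vector sum, where 20.3% and 15.4% of all genes were at least 2-fold lower. In the empty vector sum, 44.1% of the Tubb2b counts came from 1 cell, and the medians over cells were 16.6 CPM in 97Q, 14.3 CPM in 25Q and 26.6 CPM in empty vector neurons. Tubb2a had 1028 CPM in 97Q vehicle and 1088 CPM in 25Q vehicle, against 1878 CPM in the empty vector sum. Of the neurons of batch 3, 8 of 15 with 97Q and 11 of 15 with 25Q were below the lowest of the 9 empty vector neurons, at 1025 CPM. None of the 10 was at least 2-fold higher (15.1% of all genes in 97Q, 15% in 25Q). Mapt sums were 204 CPM for 97Q and 299 CPM for 25Q vehicle neurons, against 339 CPM for empty vector neurons. The remaining genes had ratios to the empty vector sum between 0.75 (Tubb3 in 97Q) and 1.67 (Stmn4 in 97Q).

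The other genes of the microtubule system were read from 9 lists with 133 genes. None passed the threshold in any comparison by edgeR's quasi-likelihood test. Over all genes under vehicle, 52.4% were above 0 in 97Q against 25Q, with a median log2 fold change of 0.057. Of 10 tested further tubulins, 8 were above 0, with a median of 0.37. Among them Tubb4a, a beta-tubulin, had 0.85 (SE 0.342) and Tubb4b 1.01 (SE 0.515). Under RGFP109, 5 of these further tubulins were above 0 and 5 below, with a median of -0.078, against -0.47 for the 10 members. In the interaction the median of the further tubulins was -0.90, beside -0.93 for the 10 members. Collapsin response mediators and growth cone proteins had 7 of 9 above 0 under vehicle, with a median of 0.39, led by Dpysl4 at 1.18 (SE 0.352) and Crmp1 at 1.26 (SE 0.613), and a median of -0.95 in the interaction.

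In the other lists, values under vehicle ran in both directions, where 52.4% of all genes were above 0. Tubulin folding cofactors had 6 of 8 above 0 and a median of 0.29, with Tbce at -1.25 (SE 0.477) and Tbcb at 1.06 (SE 0.438). Tubulin modifying enzymes had 8 of 17 above 0 and a median of -0.14, with the tubulin deacetylase Hdac6 at 1.25 (SE 0.466) and the polyglutamylase Ttll7 at -2.09 (SE 0.843). Microtubule-associated proteins had 10 of 25 above 0 and a median of -0.054, with Map7 at -2.55 (SE 0.892) and Dclk1 at -0.80 (SE 0.356). Severing proteins had 2 of 6 above 0 and a median of -0.49, with Fign, fidgetin, at 1.96 (SE 2.61).

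Kinases and phosphatases of tau had 14 of 20 above 0 and a median of 0.43, against 52.4% and 0.057 over all genes. Fyn, a tyrosine kinase that phosphorylates tau, had 101 ± 24.6 CPM in 97Q vehicle and 38.5 ± 12.0 CPM in 25Q vehicle sums (SD, n = 3). Its log2 fold change was 1.37 (SE 0.421). Its 97Q sums all lay above the 25Q sums, as for 3 of the 20 genes of this list and 3.78% of all genes. Fyn was named by its small p in this same comparison, so the lack of overlap is not a separate observation. Ppp2ca, the catalytic subunit of the main tau phosphatase, had 1.05 (SE 0.413). Stathmin kinases had 2 of 9 above 0 and a median of -0.34, with Mapk3 at -1.24 (SE 0.494) and Prkaca at 1.35 (SE 0.610). Microtubule motors had 12 of 20 above 0 and a median of 0.087, with the kinesins Kif3b at -1.29 (SE 0.447) and Kif5b at 0.83 (SE 0.400).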

How the data were processed

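The authors deposited raw read counts for each Ensembl gene and cell, with no normalization. Per the submitters' processing notes the tools were FastQC, Trimmomatic 0.36, STAR 2.5 and HTSeq 0.9.1 on GRCm38. Per the labels' protocols, SMARTer cDNA was tagmented with Nextera XT. No molecular identifiers are mentioned, so PCR reads are not independent molecules and intervals cover counting error only. Symbols and positions came from GENCODE release M21, and 53360 of 53465 identifiers had a symbol. The series text counts more neurons than those analysed here.

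The members and lists were chosen with earlier results of these data known. Counts were summed per group and batch. A gene was tested when edgeR's filterByExpr kept it and at least 20% of the 104 transgene neurons had a count, which left 15091. EdgeR 4.0.16 fitted a robust quasi-likelihood model with group and batch after TMM normalization (6 residual degrees of freedom, biological coefficient of variation 0.928). Tests were two-sided, with Benjamini-Hochberg adjustment over all genes tested. The batch stands in for separate animals, which the labels do not name. Because the model holds batch, p-values rest on the scatter of the sums that group and batch leave unexplained. This scatter may be technical. The labels name the shared batch. Deviations of sums from their group means had a Pearson r of 0.156 to 0.230 within batch 1, 0.0614 to 0.134 within batch 2 and 0.254 to 0.329 within batch 3, and at most 0.0938 between batches. Values by batch are differences of log2(CPM + 1), with CPM over the total of each sum. SEs are the absolute log2 fold change over the square root of F. DESeq2 1.42.0, limma 3.58.1 on means of log2(CPM + 1) over cells, and further alternatives are given in the closing section. The script was tested on simulated counts of the vehicle comparison. Of genes given a log2 change of 2, edgeR called 11 of 100, and of genes given a log2 change of 4, 64 of 100. Of 14891 unchanged genes it called 1. A gene that was not called can therefore still differ. Named genes were the 10 members, the 2 genes with the smallest p of each list in the vehicle comparison, and the 5 genes most like the mean of the members. A list gene that this rule names is not reported here. Batch 2 cells, Stmn2 in astrocytes and GC content were singled out after their values were seen.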

Additional observations from a re-analysis of the deposited data

Results flagged for a closer look

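Among the 9 empty vector neurons, cell 8 had 3259 CPM of Tuba1a, with the next at 1949 CPM, cell 5 had 242 CPM of Stmn1, with the next at 112 CPM, and cell 9 had 3039 CPM of Stmn2, with the next at 2000 CPM. Each lay far from the other cells by Dixon's test. Of the groups, this is the 1 small enough for that test, and chance flags about 1 in 20 of the 10 genes tested.

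Tuba1a went opposite ways in the tract comparison, higher in 97Q in each of 3 batches under vehicle and lower in each of 3 under RGFP109. The interaction was -0.91, with a Benjamini-Hochberg adjusted p of 0.998 by edgeR's quasi-likelihood test.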

How the results depend on the processing

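For the 10 genes, 544 of 570 values from 12 alternatives kept their direction and side of the threshold, and 26 changed sign. Stmn1 turned most often: -0.036 with median ratio size factors and -0.037 with DESeq2 in 97Q against 25Q under vehicle; 0.082 without the replicate block and 0.017 without neurons rich in astrocyte markers under RGFP109; 0.0046 without the block for RGFP109 in 97Q; 0.0022 with no filter and 0.23 with limma for RGFP109 in 25Q; and 0.030 with median ratio size factors, 0.030 with DESeq2, 0.023 without the block and 0.013 without neurons rich in astrocyte markers in the interaction. Limma over cells also gave Stmn1 -1.07 (97Q against 25Q under RGFP109), -1.48 (RGFP109 in 97Q) and -1.71 (interaction), against -0.011, -0.048 and -0.021 by edgeR, and Stmn3 0.23 (vehicle) and -0.38 (RGFP109 in 97Q), against 0.96 and -1.08. Tuba1b had 0.56 when pooled with Tuba1a (vehicle), by construction. Tubb2a had 0.052 without neurons rich in astrocyte markers (RGFP109), and Stmn4 -0.35 with limma (RGFP109 in 25Q). Leaving out 1 batch in turn gave, under vehicle, -0.14 to 2.44 for Tubb3 and -0.24 to 0.095 for Stmn1; under RGFP109, -0.32 to 0.29 for Stmn1 and -1.05 to 0.049 for Stmn4; for RGFP109 in 97Q, -0.45 to 0.15 for Tubb2a, -1.24 to 0.51 for Tubb2b, -0.16 to 0.20 for Stmn1 and -0.93 to 0.12 for Mapt; for RGFP109 in 25Q, -0.045 to 0.0024 for Stmn1 and -0.66 to 0.61 for Stmn4; and in the interaction, -0.12 to 0.20 for Stmn1 and -1.18 to 0.022 for Stmn4. The counts of called genes were 213, 277, 109, 152 and 70 with DESeq2 in the order of the report, and 3 (97Q against 25Q under RGFP109) and 1 (RGFP109 in 97Q) with no filter, against 0 by edgeR. The cause was not tested. Without the replicate block edgeR called 0 in each comparison. Of 90 values against empty vector or astrocytes under alternatives, 57 moved beyond their counting interval, 33 by less than it, and none changed sign. The 3 batches, with 3 to 15 cells in a sum, limit what these tests can show.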
